A study of Mus musculus with 18 samples.

Results

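The genes described here encode 7 secreted products with which regulatory T cells (Tregs, CD4 T cells that express Foxp3 and hold immune responses in check) can act on their neighbours: the cytokine Il10, the cytokine chains Ebi3 and Il12a, the fibrinogen-like protein Fgl2 and the galectins Lgals1, Lgals3 and Lgals9. They were chosen by name, all 7 were found, and they were read out of 46078 genes in bulk RNA sequencing of sorted Tregs. The mice were males of 10 weeks of the Foxp3(DTR/GFP) strain, whose Foxp3 locus carries a diphtheria toxin receptor and green fluorescent protein, and every group, controls included, carried that allele. Tregs came from the injured tissue on day 7 after a calvarial bone defect, a volumetric loss of quadriceps muscle, full-thickness punch wounds of the skin, or a myocardial infarction made by ligating the left coronary artery. Each injury gave 3 libraries, every one from cells pooled from 3 mice with 1 injury each, and 6 libraries came from Tregs of uninjured spleens, for which pooling is not stated. Neither the uninjured tissues nor spleens of injured mice were measured, so that tissue and injury cannot be told apart. Below, rose and fell mean higher and lower than in spleen. Because the RNA is from bulk cells, a change in the number of cells that make a transcript and a change in RNA per cell cannot be told apart.

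Suppression by Tregs uses soluble as well as contact-dependent means. Interleukin-10 signals through its receptor and STAT3 to restrain macrophages, dendritic cells and T cells. Ebi3 pairs with Il12a to form interleukin-35 and with the Il27 chain to form interleukin-27. Fgl2 binds an inhibitory Fc receptor on antigen-presenting cells. Galectins are lectins that bind beta-galactoside sugars on surface glycoproteins, and galectin-1 and galectin-9 can inhibit or kill T cells that carry the right glycans.

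Library names came in 2 styles, here called Endo (spleen replicates 1 to 3, skin, heart replicate 1) and Tregs (spleen replicates 4 to 6, bone, muscle, heart replicates 2 and 3). Folds were adjusted for this style, so that the spleen reference is replicates 4 to 6 for bone and muscle and replicates 1 to 3 for skin. Levels are unadjusted CPM (counts scaled by library size, with TMM factors, to a common total). Total counts ran from 5970346 to 15756884 in spleen and from 8375212 to 22635760 in the injured tissues. Foxp3, the factor that defines Tregs, stood at 344 to 444 CPM in spleen and at 587 to 837 CPM in the 12 tissue libraries, and Cd3e and Cd4 were present in every library. Markers of macrophages summed to 24.0 to 44.6 CPM over 12 genes in spleen and to 9.52 to 83.5 CPM in the tissues. The highest sum was in heart replicate 1, where Csf1r, the receptor for macrophage colony-stimulating factor, stood at 20.9 CPM against 0.157 and 0.708 CPM in the other heart libraries.

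Of the 7 genes, 6 had enough counts to be tested, and 5 of these (Il10, Ebi3, Fgl2, Lgals1 and Lgals3) were higher than in spleen in every injured tissue. The share of all tested genes called higher was 8.48% in bone, 11.8% in heart, 14.2% in muscle and 15% in skin, and the share called in either direction was 14.8%, 20.3%, 25.5% and 27.8%. The tests were edgeR's quasi-likelihood F test with p-values adjusted by Benjamini-Hochberg over all tested genes, called at 0.05. The median log2 fold change of the 6 tested genes was 1.79 in bone, 1.96 in heart, 2.65 in skin and 2.72 in muscle, while that of all tested genes lay between -0.07 and 0.01. Lgals9 did not pass in any tissue, and Il12a was too sparse to test. The 4 comparisons share the spleen libraries. The share of all genes whose tissue libraries do not overlap with spleen was not counted. The separations given below for single genes are therefore a description. Ribosomal and 7SK RNA took 5.35 to 8.93% of the counts in spleen and 2.13 to 6.37% in the tissues, and the same 5 genes passed in each tissue when ribosomal, 7SK, small nucleolar and mitochondrial genes were left out.

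**Figure D1:**
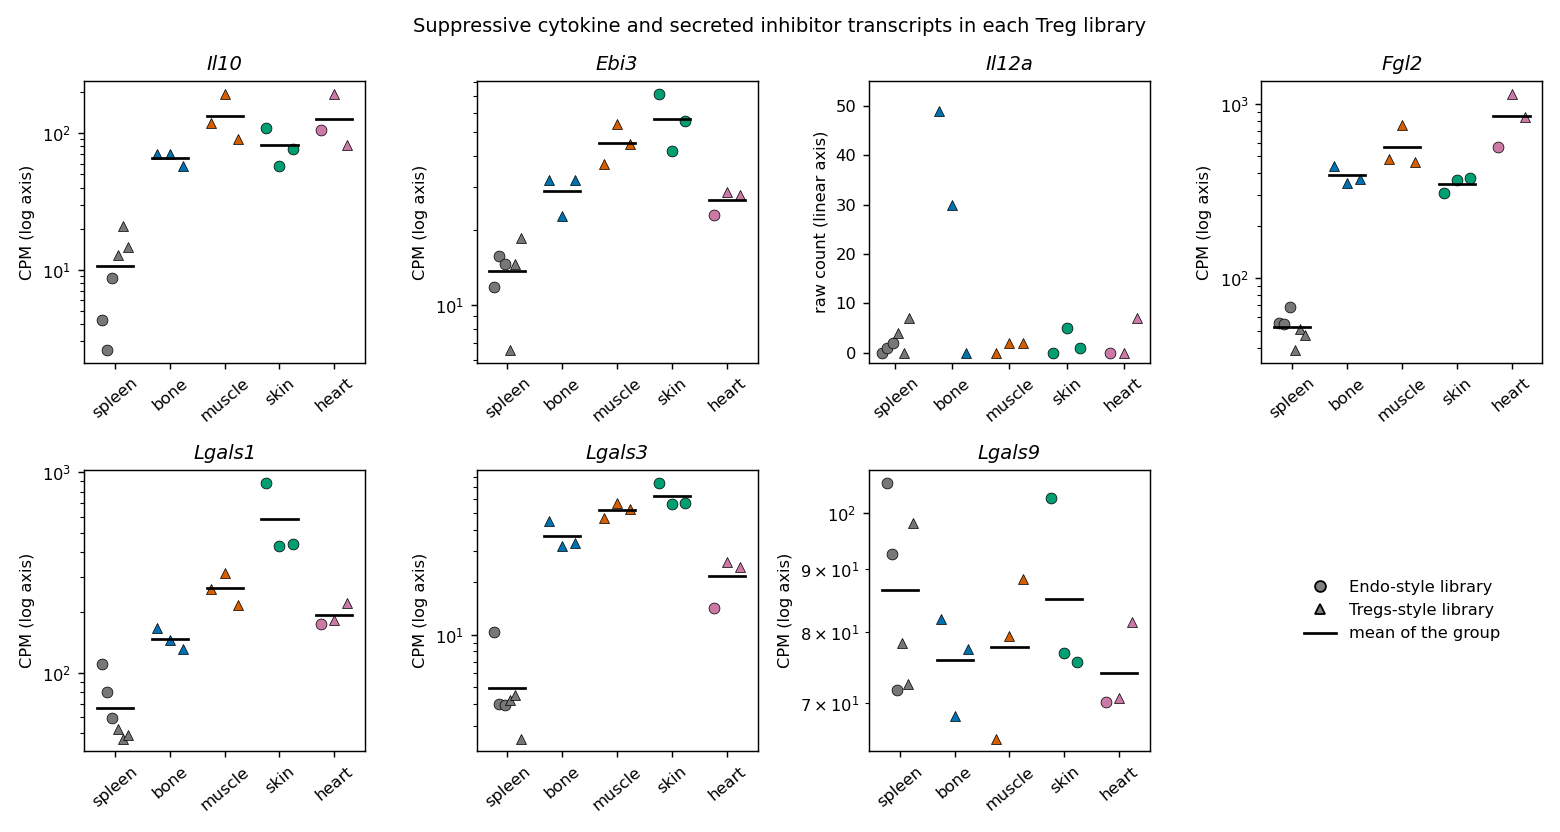
Level of each of the 7 genes in each of the 18 libraries by group (CPM on a log axis, raw counts on a linear axis for Il12a); circles and triangles are the library naming styles and lines the group means. All tissue libraries lie above all spleen libraries for Il10, Ebi3, Fgl2, Lgals1 and Lgals3, while for Lgals9 (65.4 to 106 CPM) and Il12a the groups overlap. How many of all genes separate in this way was not counted.

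Promoter windows are shown because Ebi3, Fgl2 and Lgals3 rose in every tissue while Lgals9 did not. They come from RefSeq (GRCm38.p6) and run from 250 bases before to 30 bases after the annotated start, 5′ to 3′ on the strand of the gene. Entries matched 5 of the 7 genes, of which 4 are printed, and the Lgals3 start of RefSeq lies inside the GENCODE gene. Capitals mark matches to any of 9 motifs searched on both strands.
Ebi3 (chr17:55952373-55952652, plus strand): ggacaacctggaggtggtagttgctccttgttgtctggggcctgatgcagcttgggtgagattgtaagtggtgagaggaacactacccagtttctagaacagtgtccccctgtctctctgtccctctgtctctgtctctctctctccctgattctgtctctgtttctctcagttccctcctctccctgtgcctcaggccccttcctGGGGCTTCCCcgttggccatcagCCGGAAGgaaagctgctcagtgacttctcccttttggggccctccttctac
Fgl2 (chr5:21372423-21372702, plus strand): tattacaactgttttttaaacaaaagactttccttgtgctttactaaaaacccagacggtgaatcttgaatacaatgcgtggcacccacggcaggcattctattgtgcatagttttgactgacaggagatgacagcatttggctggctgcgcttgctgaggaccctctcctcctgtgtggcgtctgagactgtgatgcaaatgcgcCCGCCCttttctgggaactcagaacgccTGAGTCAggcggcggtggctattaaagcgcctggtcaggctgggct
Lgals3 (chr14:47373610-47373889, plus strand): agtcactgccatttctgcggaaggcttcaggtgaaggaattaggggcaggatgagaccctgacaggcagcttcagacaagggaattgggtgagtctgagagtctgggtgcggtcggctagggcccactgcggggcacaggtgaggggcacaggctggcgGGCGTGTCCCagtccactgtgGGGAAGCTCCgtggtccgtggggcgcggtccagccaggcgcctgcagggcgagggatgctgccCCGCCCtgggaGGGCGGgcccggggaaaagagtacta
Lgals9 (chr11:78984895-78985174, minus strand): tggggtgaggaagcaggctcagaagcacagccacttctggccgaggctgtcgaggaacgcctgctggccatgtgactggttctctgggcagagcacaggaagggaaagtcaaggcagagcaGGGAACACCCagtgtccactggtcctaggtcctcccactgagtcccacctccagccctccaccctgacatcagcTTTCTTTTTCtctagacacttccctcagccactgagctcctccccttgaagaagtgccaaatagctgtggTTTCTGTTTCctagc

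The Fgl2 window held an AP-1 motif (TGANTCA) at bases -16 to -10, counted from the start with no base 0. It also held a GC box (CCGCCC, the reverse complement of GGGCGG) at -44 to -39. An AP-1 match occurs in 7.46% and a GC box in 34.7% of the 32851 windows of all genes. The Ebi3 window held an ETS motif (CCGGAAG, in 8.45% of windows) at -21 to -15. It also held an NF-kB motif (GGGA, any 4 bases and CC, or the reverse complement, in 19.4% of windows) at -44 to -35. Lgals3 held GC boxes at -7 to -2 and 5 to 10 and NF-kB motifs at -91 to -82 and -70 to -61. Lgals9 held 2 interferon response motifs (GAAA, any 2 bases and GAAA, or the reverse complement, in 3.28% of windows), at -55 to -46 and at 16 to 25. Its NF-kB motif lay at -129 to -120. No motif was shared by the windows of all 3 rising genes. The other motifs searched (CRE TGACGTCA, TATA box TATAAA, E-box CACGTG and MAF site TGCTGAC) had no match in these 4 windows. These are matches of letters in one window, and binding was not measured.

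Il10 (ENSMUSG00000016529, GRCm38 chr1:131019845-131024974, plus strand, 5 exon blocks) encodes the anti-inflammatory cytokine interleukin-10. In spleen its level ran from 2.60 to 20.8 CPM with a median of 10.8, and it was 69.9, 71.0 and 57.2 CPM in bone replicates 1, b and c. It reached 118, 194 and 91.2 CPM in muscle, 110, 57.1 and 76.9 CPM in skin, and 105, 192 and 81.4 CPM in heart. Every tissue library stood above every spleen library, the lowest being 2.75 times the highest spleen library in bone and skin, 3.91 times in heart and 4.39 times in muscle. Adjusted for naming style, Il10 rose 4.04-fold in bone (log2 2.02 ± 0.35 SE, edgeR adjusted p = 0.0012) and 8.22-fold in muscle (3.04 ± 0.37, adjusted p = 2.7e-05). It rose 14.8-fold in skin (3.89 ± 0.41, adjusted p = 6.1e-06) and 11.7-fold in heart (3.54 ± 0.39, adjusted p = 0.00025).

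Il10 was the only one of the 6 tested genes for which the naming style itself passed the test. The 3 Endo-style spleen libraries held 2.60 to 8.73 CPM (15 to 69 counts) and the Tregs-style ones 12.8 to 20.8 CPM, without overlap. The style term was 1.57 ± 0.41 (SE) on the log2 scale, higher in the Tregs style, with an edgeR adjusted p of 0.044, where 4.74% of all genes passed. Against same-style spleen libraries only, the fold was 4.11 in bone, 8.28 in muscle and 14.8 in skin. With no style term, the skin fold was 7.16. It was 9.38 without spleen replicates 1 and 2 and 23.1 without spleen replicate 3. The call held each time (adjusted p at most 0.00058). In heart the Endo-style library (105 CPM) lay between the Tregs-style ones (192 and 81.4 CPM).

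Ebi3 (ENSMUSG00000003206, chr17:55952640-55957022, plus strand, 5 exon blocks) encodes the chain shared by interleukin-35 and interleukin-27. It stood at 6.57 to 18.6 CPM in spleen, with a median of 14.6. Bone replicates 1, b and c held 32.0, 22.8 and 32.1 CPM, muscle 37.1, 53.8 and 44.9 CPM, skin 71.4, 41.9 and 55.6 CPM, and heart 23.2, 28.7 and 27.7 CPM. No tissue library overlapped with spleen, but the gap was narrow in bone and heart, where the lowest library was 1.22 and 1.24 times the highest spleen library. Ebi3 rose 2.15-fold in bone (log2 1.10 ± 0.28 SE, edgeR adjusted p = 0.0092), 3.37-fold in muscle (1.75 ± 0.28, adjusted p = 7.8e-05) and 3.94-fold in skin (1.98 ± 0.30, adjusted p = 2.2e-05). The heart fold of 1.93 (0.95 ± 0.27, adjusted p = 0.025) was no longer called without heart replicate 1, 2 or 3 (adjusted p = 0.05, 0.082 and 0.056). Ebi3 shares 270 exon bases with the opposite-strand gene Gm16712, which held at most 18 counts in any library and 64 in all against 6857 for Ebi3.

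Il12a (ENSMUSG00000027776, chr3:68690644-68698547, plus strand) encodes the p35 chain, the partner of Ebi3 in interleukin-35. Its counts were near 0 in most libraries. The 6 spleen libraries held 0 to 7 counts and 14 in all, muscle 0, 2 and 2, skin 0, 5 and 1, and heart 0, 0 and 7. Bone replicates 1 and b held 49 and 30 counts (2.04 and 1.20 CPM), while bone replicate c held 0. A count of 0, found in 7 libraries, allows a level of up to 0.194 to 0.497 CPM depending on the library (3 counts, counting error only). Without the filter on low counts no comparison of Il12a passed, and bone against spleen gave a log2 fold change of 2.07 ± 1.63 (SE) with an edgeR adjusted p of 0.51. Il27, Il23a and Il12b were as sparse. Il27, the partner of Ebi3 in interleukin-27, and Il23a averaged 0 CPM in every injured tissue and 0.0211 and 0.0422 CPM in spleen. Il12b, the p40 chain of interleukin-12, was at most 0.782 CPM in every library except 1 of muscle with 4.63 CPM. Of the 5 other family genes listed only Clcf1 could be tested, and it passed in no tissue (20.9 ± 5.94 CPM in spleen, SD, n = 6). The 4 other members of the interleukin-10 family listed (Il19, Il20, Il22 and Il24) were too low to test, at 0 CPM in every spleen library and at most 0.366 CPM on average in a tissue.

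Fgl2 (ENSMUSG00000039899, chr5:21372642-21378374, plus strand, 2 exon blocks, inside an intron of the opposite-strand gene Ccdc146 with no shared exon base) encodes fibroleukin, of which Tregs secrete a soluble form. Spleen libraries held 38.9 to 68.3 CPM with a median of 53.1. Bone replicates 1, b and c reached 442, 353 and 371 CPM, muscle 485, 751 and 466 CPM, skin 307, 365 and 374 CPM, and heart 566, 1140 and 842 CPM. Its separation from spleen was wide, the lowest tissue library being 4.49 times the highest spleen library in skin, 5.17 times in bone, 6.82 times in muscle and 8.28 times in heart. Fgl2 rose 8.35-fold in bone (log2 3.06 ± 0.18 SE, edgeR adjusted p = 1.2e-10), 12.2-fold in muscle (3.61 ± 0.19, adjusted p = 4.2e-12), 5.75-fold in skin (2.52 ± 0.18, adjusted p = 3.3e-10) and 16.2-fold in heart (4.01 ± 0.22, adjusted p = 4.5e-08).

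**Figure D2:**
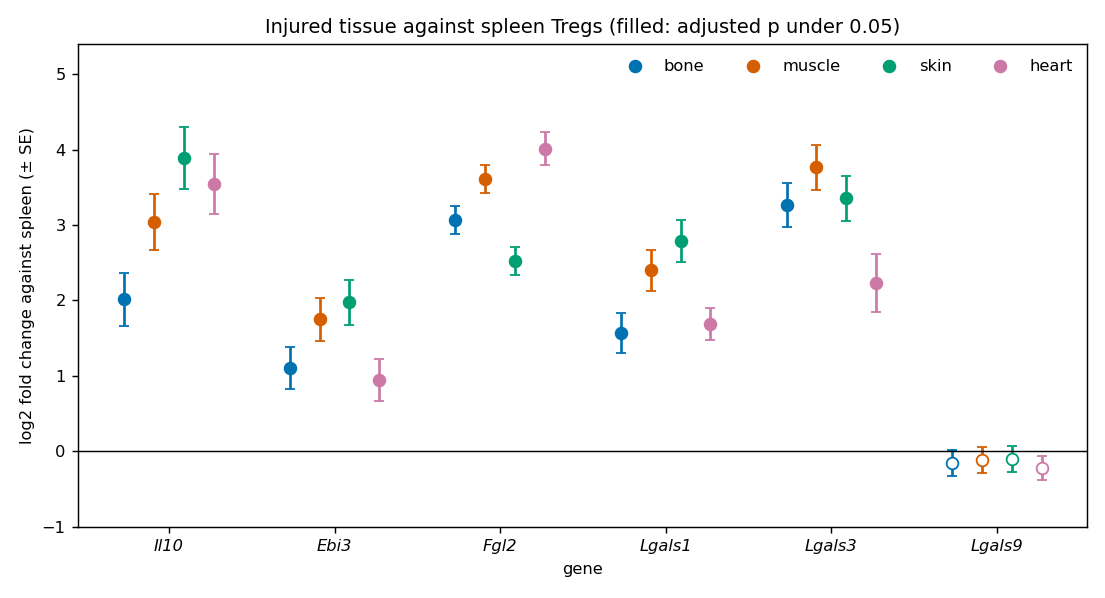
Style-adjusted log2 fold change (± SE) of the 6 tested genes in each injured tissue against spleen; filled points passed at an adjusted p under 0.05 and open points did not. Fgl2 ranged from 2.52 in skin to 4.01 in heart and Lgals3 from 2.23 in heart to 3.76 in muscle, while the Lgals9 points lie between -0.22 and -0.10.

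Lgals1 (ENSMUSG00000068220, chr15:78926725-78930465, plus strand, 5 exon blocks) encodes galectin-1, a small lectin whose partners on T cells include CD7, CD43 and CD45. It stood at 46.9 to 111 CPM in spleen, with a median of 55.9. It was 167, 146 and 131 CPM in bone replicates 1, b and c, 261, 314 and 217 CPM in muscle, 889, 429 and 437 CPM in skin, and 176, 184 and 222 CPM in heart. In these unadjusted levels skin stood apart, its lowest library above the highest of every other group. Skin replicate 1 held about as much as the other skin libraries together. Endo-style spleen libraries, of the style of skin, averaged 83.6 CPM and Tregs-style ones 49.4 CPM. After adjustment for style, muscle against skin was -0.39 ± 0.37 (log2, SE, edgeR adjusted p = 0.75). Lgals1 rose 2.96-fold in bone (log2 1.56 ± 0.26 SE, edgeR adjusted p = 0.00055), 5.27-fold in muscle (2.40 ± 0.27, adjusted p = 6e-06), 6.90-fold in skin (2.79 ± 0.28, adjusted p = 9.6e-07) and 3.23-fold in heart (1.69 ± 0.21, adjusted p = 8.2e-05). The skin call held without skin replicate 1 (5.28-fold, adjusted p = 7.6e-09).

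Lgals3 (ENSMUSG00000050335, chr14:47367751-47386160, plus strand, 8 exon blocks) encodes galectin-3, the chimeric galectin that forms lattices on glycoproteins. It was low in spleen, where 5 libraries held 2.53 to 4.52 CPM and replicate 1 held 10.3 CPM (23 to 70 counts in all 6). The level was 44.6, 32.4 and 33.7 CPM in bone replicates 1, b and c, 46.6, 56.6 and 52.6 CPM in muscle, 74.4, 55.7 and 56.9 CPM in skin, and 14.2, 26.0 and 24.5 CPM in heart. No tissue library overlapped with spleen, and the lowest of heart was 1.39 times the highest of spleen. Lgals3 rose 9.64-fold in bone (log2 3.27 ± 0.29 SE, edgeR adjusted p = 3.8e-08), 13.6-fold in muscle (3.76 ± 0.30, adjusted p = 2.2e-09), 10.2-fold in skin (3.36 ± 0.30, adjusted p = 1.1e-08) and 4.69-fold in heart (2.23 ± 0.39, adjusted p = 0.00097). Without spleen replicate 1 the skin fold was 15.9.

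Lgals9 (ENSMUSG00000001123, chr11:78962974-78984946, minus strand, 11 exon blocks) encodes galectin-9, a tandem-repeat galectin that binds the inhibitory receptor TIM-3. Spleen libraries held 71.7 to 106 CPM with a median of 85.5. Bone replicates 1, b and c held 81.9, 68.2 and 77.5 CPM, muscle 65.4, 79.4 and 88.3 CPM, skin 103, 76.8 and 75.5 CPM, and heart 70.1, 70.6 and 81.5 CPM. All groups overlapped. The log2 fold changes against spleen were -0.15 ± 0.17 (SE) in bone, -0.22 ± 0.16 in heart, -0.11 ± 0.17 in muscle and -0.10 ± 0.17 in skin, with edgeR adjusted p of 0.63, 0.37, 0.67 and 0.71. The sign of the difference turned in bone without spleen replicate 6, in muscle without spleen replicate 6 or muscle replicate 1, and in skin without spleen replicate 1 or skin replicate 3.

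Per length of transcript, Lgals1 had the highest level of the 7 in each library of spleen, bone, muscle and skin. Its mean level was 73.6 ± 27.7 CPM per kilobase of exon in spleen (SD, n = 6), 164 ± 19.7 in bone, 215 ± 27.4 in heart, 292 ± 54.3 in muscle and 647 ± 291 in skin (n = 3 each). In spleen Lgals9 came next (40.5 ± 6.73 CPM per kilobase), and Fgl2, Ebi3 and Il10 averaged 13.9 ± 2.58, 11.8 ± 3.57 and 8.14 ± 5.21. In heart Fgl2 averaged 224 ± 75.2 CPM per kilobase, beside Lgals1 at 215 ± 27.4, and in bone, muscle and skin it was second with 103 ± 12.3, 150 ± 42.1 and 92.0 ± 9.64. Il10 averaged 50.4 ± 5.85, 102 ± 40.5, 62.0 ± 20.2 and 96.3 ± 44.5 CPM per kilobase in bone, muscle, skin and heart, above Lgals9 (34.7 to 39.9) in each. Ebi3 averaged 23.0 to 48.8 and Lgals3 11.6 to 33.5 CPM per kilobase in the tissues.

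Summed over the 7 genes, the level was 123 to 207 CPM per kilobase in spleen, 369 to 446 in bone, 485 to 722 in heart, 541 to 808 in muscle and 717 to 1300 in skin. The make-up of that sum differed as well. Lgals9 gave 24.0 to 32.4% of it in spleen and 3.72 to 9.82% in the tissues. Fgl2 gave 7.13 to 13% in spleen, 21.5 to 26.5% in bone and muscle and 30.8 to 41.5% in heart, but 6.23 to 13.4% in skin. Lgals1 gave 64.0 to 75.8% in skin, more than in any library of another group (28.2 to 59.7%). Il10 gave 1.21 to 12.2% in spleen, 6.08 to 7.78% in skin and 10.2 to 20.3% in bone, muscle and heart.

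**Figure D3:**
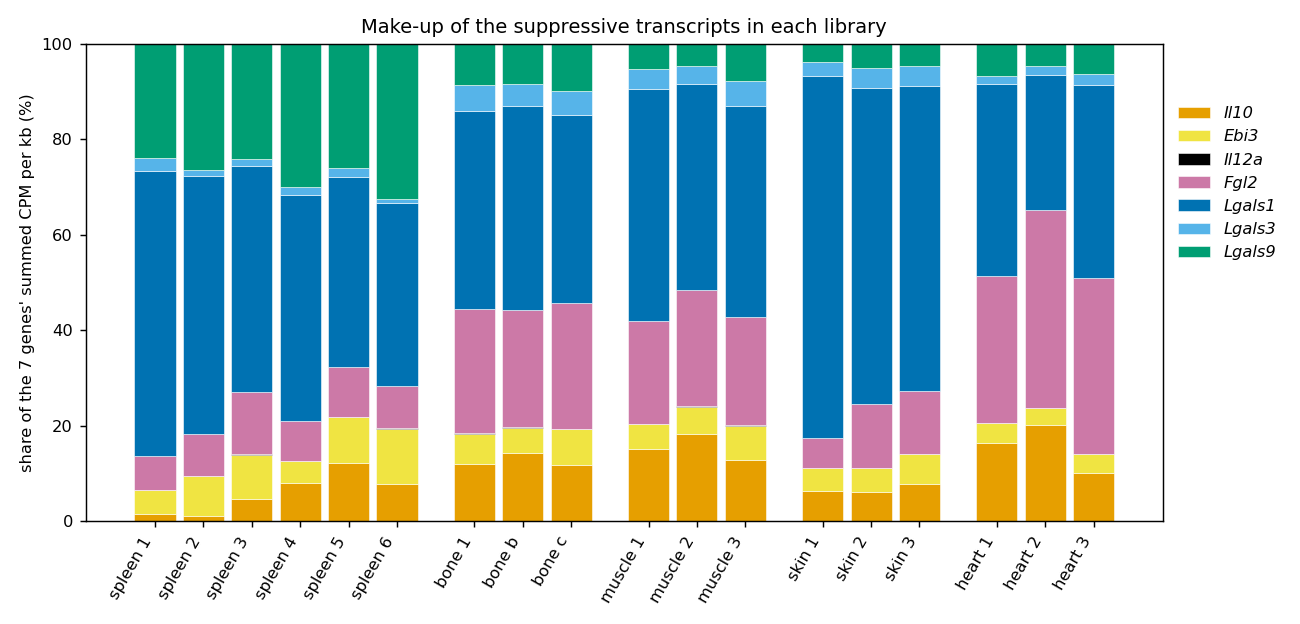
Share of each of the 7 genes (%) in their summed CPM per kilobase, 1 bar per library. Lgals9 takes 24.0 to 32.4% of the spleen bars, Fgl2 30.8 to 41.5% of the heart bars and Lgals1 64.0 to 75.8% of the skin bars.

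Direct tests between injured tissues separated few of the genes. All skin libraries were of the Endo style and all bone and muscle libraries of the Tregs style. Contrasts of bone or muscle with skin therefore rest on the style difference within spleen. In contrasts with heart the style term rests on spleen and heart. For Fgl2 the order of mean levels was heart (848 ± 285 CPM, SD), muscle (567 ± 159), bone (389 ± 46.7) and skin (348 ± 36.5), n = 3 each. It was higher in heart than in skin (2.47-fold, log2 1.30 ± 0.27 SE, edgeR adjusted p = 0.0082, a call kept in all 15 alternative analyses) and higher in heart than in bone (2.17-fold, 1.12 ± 0.23, adjusted p = 0.0056). Without heart replicate 2, which held 1140 CPM, the heart and bone difference was 0.80 (adjusted p = 0.06). It was also higher in muscle than in skin (2.12-fold, 1.09 ± 0.25, adjusted p = 0.027), but that call was lost in 6 of 16 alternatives. These were the fit to all 18 libraries (adjusted p = 0.32), limma-voom (0.081), and the fits without muscle replicate 2 (0.066) or without skin replicate 1, 2 or 3 (0.086, 0.052 and 0.056). The remaining contrasts did not pass: heart against muscle gave 0.57 (edgeR adjusted p = 0.39), bone against muscle -0.55 (0.064) and bone against skin 0.54 (0.19) on the log2 scale. The shares of all genes called in either direction were 2.38% for heart against skin, 6.68% for heart against bone and 1.31% for muscle against skin.

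Il10 levels were ordered muscle (134 ± 53.1 CPM), heart (126 ± 58.3), skin (81.2 ± 26.4) and bone (66.1 ± 7.66), and each overlapped with its neighbour. After adjustment for style Il10 was lower in bone than in skin (log2 -1.87 ± 0.53 SE, edgeR adjusted p = 0.046, 8.11% of all genes called), a contrast that rests on the difference between the 2 spleen styles. It was lost in 10 of 16 alternatives, among them the fits without bone replicate 1, b or c or skin replicate 1 or 3 (adjusted p = 0.075 to 0.1), and was -0.30 (adjusted p = 0.75) with no style term, the libraries of bone (57.2 to 71.0 CPM) and skin (57.1 to 110 CPM) overlapping. None of the other Il10 contrasts between tissues passed (adjusted p from 0.1 to 0.98).

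For Ebi3 the order was skin (56.3 ± 14.8 CPM), muscle (45.3 ± 8.34), bone (28.9 ± 5.35) and heart (26.5 ± 2.95), and for Lgals3 it was skin (62.3 ± 10.5), muscle (51.9 ± 5.0), bone (36.9 ± 6.72) and heart (21.6 ± 6.42). Heart was last for both, and its Lgals3 libraries (14.2 to 26.0 CPM) lay below all others of injured tissue (32.4 to 74.4 CPM). Yet no contrast between tissues passed for either in edgeR, the nearest being heart against skin for Lgals3 (log2 -1.41 ± 0.40 SE, adjusted p = 0.065) and for Ebi3 (-1.11 ± 0.32, adjusted p = 0.07). Lgals1 ran skin (585 ± 263 CPM), muscle (264 ± 49.0), heart (194 ± 24.8) and bone (148 ± 17.8). After adjustment for style its nearest contrasts were bone against skin (-1.22 ± 0.37, adjusted p = 0.052) and heart against skin (-1.25 ± 0.34, adjusted p = 0.065). No Lgals9 contrast had an adjusted p below 0.8.

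In bone against muscle edgeR called 0 of the 6 genes (4.86% of all genes), with 4 at an unadjusted p under 0.05, DESeq2 called Fgl2, Il10 and Lgals1 (8.14% of all genes), and limma-voom 0 (3.44%). In heart against muscle edgeR called 0 (0.452% of all genes), with 3 at an unadjusted p under 0.05, DESeq2 called Lgals3 (1.33% of all genes) and limma-voom 0 (0.44%). In heart against skin DESeq2 called Ebi3, Fgl2, Lgals1 and Lgals3 (5% of all genes) and limma-voom Fgl2, Lgals1 and Lgals3 (1.76%). In heart against bone DESeq2 called Fgl2 and Il10 (10.4% of all genes) and limma-voom Fgl2 (6.4%).

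Among the genes through which the cytokines act, Il10ra, the ligand-binding chain of the interleukin-10 receptor, rose 2.12-fold in bone, 2.48-fold in heart, 2.52-fold in muscle and 1.56-fold in skin (edgeR adjusted p = 0.00019, 8.2e-05, 9.7e-06 and 0.011). Its levels were 49.6 to 91.4 CPM in spleen and 107 to 200 CPM in the tissues. Stat3, the factor downstream of that receptor, rose in all 4 tissues, 1.84-fold to 2.64-fold, from 198 to 246 CPM in spleen to 381 to 716 CPM. Of the 14 genes of this list 6 were higher and 1 lower in bone, 5 and 2 in muscle, 6 and 2 in skin, and 5 and 1 in heart. The list's median log2 fold change was 0.45, 0.08, 0.14 and 0.39 in that order, beside medians of all genes between -0.07 and 0.01. The shares of all genes called in either direction were 14.8%, 25.5%, 27.8% and 20.3% in that order. Il6st (gp130), the signalling chain shared by interleukin-27, interleukin-35 and interleukin-6 receptors, fell in muscle (log2 -0.80, adjusted p = 0.00013) and stood at 367 ± 20.9 CPM in spleen (SD, n = 6). Il27ra fell in skin (-0.57, adjusted p = 0.0065). Il12rb2, a receptor chain for interleukin-12 and interleukin-35, was low (0.904 to 3.67 CPM in spleen) and passed in bone with 4.7 to 8.99 CPM (5.09-fold, adjusted p = 0.036), a call lost in 7 of 20 alternatives, among them the fits without spleen replicate 4, 5 or 6 or bone replicate 1 or c. The Il10ra call in skin was lost without spleen replicate 3 or skin replicate 1, the Il27ra call without spleen replicate 2 or skin replicate 2.

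Of 9 listed receptors and ligands of Fgl2 and the galectins, 3 rose in every tissue: Havcr2, Tnfrsf9 and Cd44, all of which can bind galectin-9. Havcr2 (TIM-3, an inhibitory receptor) was at 1.73 to 5.04 CPM in spleen and at 46.4 to 183 CPM in the tissues. It rose 17.5-fold in bone, 20.4-fold in heart, 22.5-fold in muscle and 64.5-fold in skin (edgeR adjusted p at most 1.2e-07). Tnfrsf9 (4-1BB, a costimulatory receptor) rose 4.25-fold in bone, 5.78-fold in heart, 5.87-fold in muscle and 10.2-fold in skin. Cd44, a hyaluronan receptor named here after its values were seen, rose 3.00-fold, 3.62-fold, 4.82-fold and 5.10-fold in the same order. Lgals9 itself did not pass in any of them. Fcgr2b, the Fc receptor that Fgl2 binds, was at 0.166 to 3.03 CPM in spleen and at most 6.78 CPM elsewhere, and passed in no tissue (adjusted p = 0.4 to 0.99). Lgals3bp, a glycoprotein bound by galectin-3, fell 2.65-fold in skin (28.0 to 40.3 against 53.0 to 97.4 CPM, adjusted p = 9.7e-06) and did not pass elsewhere. The other decreases on the list were Cd7 in muscle (lost without spleen replicate 4 or 5 or muscle replicate 2) and Itgb1 in skin (lost without spleen replicate 1 or skin replicate 1). The list's median log2 fold change was 0.44 in bone, 0.29 in heart, 0.37 in muscle and 0.30 in skin. Over all genes 8.48% were called higher in bone, 11.8% in heart, 14.2% in muscle and 15% in skin.

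Enzymes that shape the glycans bound by galectins moved in both directions. Gcnt1, which starts core-2 O-glycan branches that galectin-1 recognises, went from 5.69 to 11.9 CPM in spleen to 257 to 284 CPM in skin (25.2-fold, edgeR adjusted p = 2.8e-11). It rose 6.23-fold in bone, 5.58-fold in muscle and 4.24-fold in heart. Gcnt2, a related branching enzyme, rose from 0.539 ± 0.43 CPM (SD, n = 6) to 4.68 to 10.4 CPM on average. St6gal1, whose sialic acid cap blocks galectin-1 binding, fell 2.30-fold in heart, 2.22-fold in muscle and 2.18-fold in skin (adjusted p at most 9e-05) and did not pass in bone (adjusted p = 0.21). Mgat5, which builds branched N-glycans, fell in skin (1.99-fold, adjusted p = 7.2e-06) and did not pass elsewhere. Of the 12 enzymes 2 rose and 1 fell in bone, 3 and 2 in muscle, 3 and 4 in skin, and 2 and 1 in heart, with list medians between -0.04 and 0.17. The heart call on Gcnt2 was lost without heart replicate 1. Of 8 other galectin genes 4 could be tested, and Lgalsl alone passed, 2.29-fold higher in skin, 1.91-fold in muscle and 1.85-fold in heart, the last lost without spleen replicate 4, 5 or 6 or heart replicate 2 or 3.

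Transcription factors that act on the Il10 gene in T cells made up the list with most calls. Of 21 such genes 12 rose and 1 fell in bone, 16 and 1 in muscle, 15 and 1 in skin, and 15 and 1 in heart. Their median log2 fold changes were 0.53, 0.90, 1.63 and 1.01. Over all genes 14.8%, 25.5%, 27.8% and 20.3% were called in either direction in that order. Fosl2, an AP-1 subunit, rose 5.77-fold in bone, 16.0-fold in heart, 8.87-fold in muscle and 24.8-fold in skin, from 13.7 to 93.4 CPM in spleen to 382 to 1050 CPM. These folds, like those below, are adjusted for naming style. Mean Fosl2 levels were 470 CPM in bone, 800 in heart, 721 in muscle and 722 in skin. Muscle and skin thus had like levels, and their folds differ through the spleen reference of each style. Prdm1 (Blimp-1), a factor of effector Tregs, rose from 29.3 to 62.1 CPM in spleen to 117 to 314 CPM, by 2.77-fold, 2.81-fold, 3.41-fold and 8.45-fold in the same order. Maf, which binds and activates Il10, rose 1.59-fold in bone, 1.82-fold in heart, 1.87-fold in muscle and 3.09-fold in skin (edgeR adjusted p = 0.042, 0.012, 0.0038 and 1e-05). The bone call on Maf was lost without spleen replicate 4, bone replicate 1 or bone replicate b and the heart call without heart replicate 1. Nfil3 rose in all 4 tissues, from 1.64-fold in bone to 21.3-fold in skin (edgeR adjusted p = 3.5e-13), where only Fosl2 of the list rose more. Id2 rose 5.15-fold in bone, 12.95-fold in heart (adjusted p = 3.8e-09), 8.37-fold in muscle and 16.3-fold in skin. Ikzf1 (Ikaros) was the gene that fell in each tissue, by 0.61 in bone, 0.84 in heart, 1.05 in muscle and 0.77 in skin on the log2 scale. Without heart replicate 1 the heart count was 11 higher, and without bone replicate 1 the bone count was 9.

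**Figure D4:**
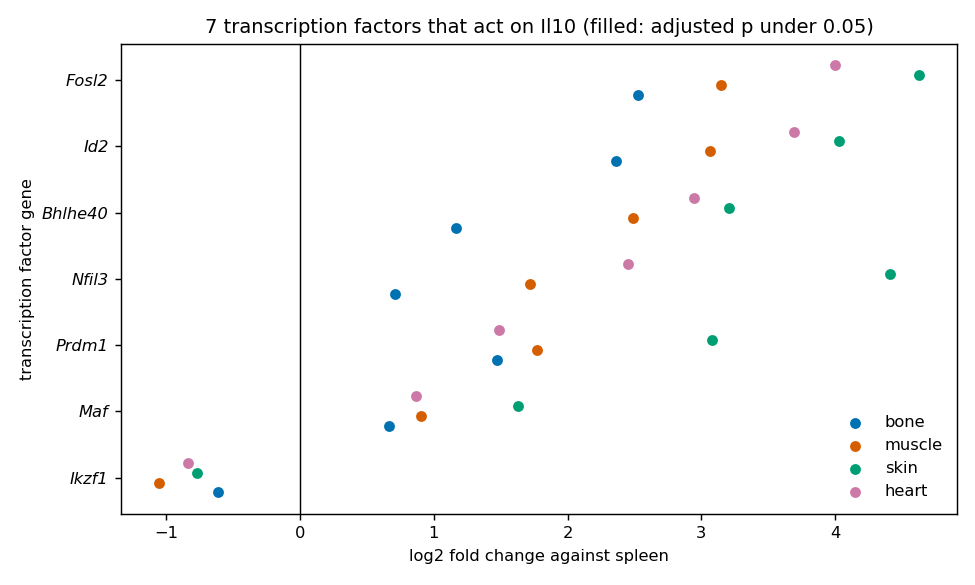
Style-adjusted log2 fold change against spleen, in each injured tissue, of 7 of the 21 transcription factor genes that act on Il10, those named in the text. Filled points passed at an adjusted p under 0.05. Fosl2 lies between 2.53 in bone and 4.63 in skin, and Ikzf1 is below 0 in all 4 tissues.

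Over the 18 libraries, on log2(CPM + 1), the genes most like Il10 among 8543 expressed genes were Nr4a3 (Pearson r = 0.971), an orphan nuclear receptor, and the transcription factor genes Fosl2 (0.97) and Bhlhe40 (0.964). After the group means were removed, these correlations were 0.762, 0.819 and 0.775. Naming style was not removed, so its differences inside spleen and heart remain in all the within-group values given here. For Il10 the 2 spleen styles did not overlap. Fgl2 was most like Cxcr6 (0.985), a chemokine receptor of tissue T cells, Ifngr1 (0.975) and Ccr1 (0.973), with 0.624, 0.336 and 0.686 within groups. Ebi3 was most like Icam1 (0.95), Itfg3 (0.93) and Metrnl (0.929), with 0.621, 0.672 and 0.628 within groups. Lgals1 followed S100a10 (0.975), Capg (0.97) and Agpat4 (0.97), with 0.851, 0.842 and 0.666 within groups. Lgals3 followed Myadm (0.975), Vim (0.972) and Lmna (0.972), which encode intermediate filament proteins in the last 2 cases, with 0.675, 0.569 and 0.547 within groups. Nearest to Lgals9 were Tsc22d4 (0.89), Trmt2b (0.88) and Rac2 (0.823), with 0.884, 0.875 and 0.808 within groups. Among the genes themselves r was 0.91 for Il10 with Fgl2 and for Lgals1 with Lgals3. Within groups it was 0.07 for the first pair and 0.7 for the second, so that the first rests on differences between groups. Lgals9 correlated at -0.42 to 0.03 with the other 5. All these values share the same 18 libraries and their 5 groups, and are given as a description.

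Other cells can also make these products. Fgl2 and Lgals3 are expressed by macrophages and Lgals1 by fibroblasts. Of 12 macrophage markers 10 could be tested, and Itgam alone was higher than in spleen, in every tissue, while 3 were lower in bone, 0 in heart, 4 in muscle and 2 in skin (edgeR). The summed level was 22.6 to 30.4 CPM in bone, 9.52 to 83.5 in heart, 13.6 to 25.4 in muscle and 10.1 to 27.1 in skin, beside 24.0 to 44.6 in spleen. Of the complement and phagocyte markers, C1qa was at 0 in bone and muscle, C1qc, Fcgr1 and Mertk were at 0 in bone, and Fcgr1 was also at 0 in spleen. In heart replicates 1, 2 and 3 the macrophage sum was 83.5, 16.7 and 9.52 CPM. Beside it Fgl2 was 566, 1140 and 842 CPM and Lgals3 14.2, 26.0 and 24.5 CPM. Replicate 1 is also the only Endo-style heart library, so style and macrophage sum cannot be told apart there. Fibroblast markers, 8 in number, summed to 0 to 18.8 CPM in spleen, 25.0 to 79.1 in bone, 16.6 to 27.5 in heart, 14.5 to 61.9 in muscle and 17.1 to 123 in skin. Fn1 and 1 further gene (Col1a1 in bone, Dcn in muscle) passed as higher in bone and muscle, Fn1 alone in heart and none in skin. In skin replicates 1, 2 and 3 the fibroblast sum was 17.1, 17.8 and 123 CPM, beside Lgals1 at 889, 429 and 437 CPM. Dendritic cell markers summed to 4.47 to 95.1 CPM in spleen and 17.8 to 89.7 CPM in the tissues, with Zbtb46 higher in all 4, Xcr1 in muscle and heart, and Ccl22 and Flt3 in skin, of 8 tested (6 in heart). B cell markers were lower in muscle (8 of 8) and skin (7 of 8), and neutrophil markers summed to at most 29.6 CPM in any library. The part of any such cells in the levels was not tested.

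**Figure D5:**
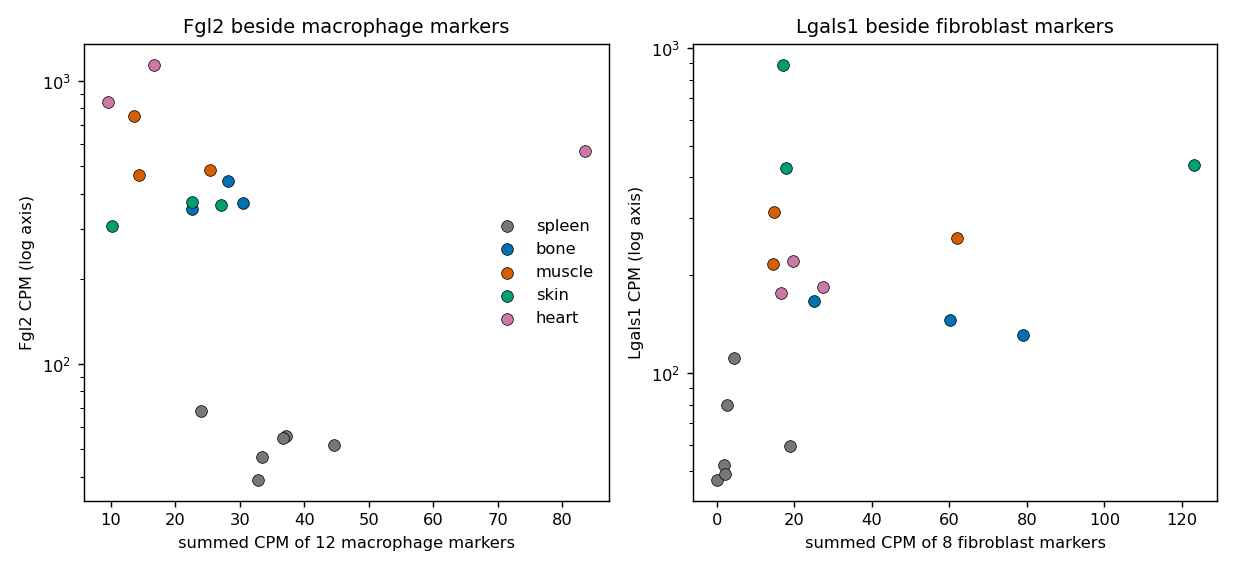
Fgl2 (left) and Lgals1 (right) levels (CPM, log axis) against the summed CPM of macrophage or fibroblast markers, 1 point per library. Macrophage sums are 24.0 to 44.6 CPM in spleen and 9.52 to 83.5 CPM in the tissues. Fibroblast sums are 0 to 18.8 CPM in spleen and 14.5 to 123 CPM in the tissues. The part of such cells in the levels was not tested.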

How the data were processed

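Tregs were profiled by bulk RNA sequencing in 18 libraries (1 ng of total RNA each, Ovation Solo kit, per the labels' protocols). The authors deposited whole-number counts per gene in 2 tables that share 6 identical spleen columns. STAR, featureCounts, limma and GRCm38 are named, without versions, per the submitters' processing notes. The sources used here do not give the annotation release, the strand setting or how duplicate reads were handled. The labels of bone replicates 2 and 3 name no column, so the 2 bone columns not tied to a sample are called b and c, with no replicate number.

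Counts were tested with edgeR 4.0.16 in R 4.3.3 (TMM scaling, filterByExpr, quasi-likelihood F test, group plus naming style, Benjamini-Hochberg threshold 0.05), on 15 libraries for bone, muscle, skin and spleen (15617 genes), 9 for heart against spleen (15025) and 18 for heart against the other tissues (15926). SE is the size of the log2 fold change over the square root of F. Levels are CPM, divided by GENCODE M21 exon length where genes are compared. Alternatives included DESeq2 1.42.0, limma 3.58.1 (voom), other scalings and filters, and each library left out. Members and lists were chosen with earlier results of these data known. From each list the text names the 2 genes with the highest and lowest passing fold changes per tissue, from which examples were taken, and 12 genes fixed by name (Il12b, Il27, Il23a, Il10ra, Il27ra, Il6st, Il12rb2, Fcgr2b, Havcr2, Lgals3bp, Maf and Prdm1). Libraries of 1 group differed by more than sampling noise (chi-square per degree of freedom 10.9 to 157). Each p-value rests on the spread between libraries alone. The fits were tested on simulated counts. Some genes of the lists enter the counts but are not reported here by name.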

Additional observations from a re-analysis of the deposited data

Results flagged for a closer look

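Lgals3 in spleen had 1 library far from the others: spleen replicate 1 held 10.3 CPM, while the other 5 held 2.53 to 4.52 CPM. Chance flags about 1 in 20 groups by this rule of gap over range. Without that library Lgals3 was 15.9-fold higher in skin than in spleen, against 10.2-fold with it.

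Fgl2 differed between injured tissues by direct test. The style-adjusted log2 fold change was 1.12 for heart against bone, 1.30 for heart against skin and 1.09 for muscle against skin. Muscle and skin share no naming style, so the adjustment between them comes from the spleen libraries. The first was lost without heart replicate 2, the library with the most Fgl2 (1140 CPM), and the last without muscle replicate 2 or any 1 skin library. Only the contrast of heart and skin was called in every alternative that was run for it.

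Il10 differed between bone and skin, with a log2 fold change of -1.87 after adjustment for naming style. The unadjusted levels overlap, at 57.2 to 71.0 CPM in bone and 57.1 to 110 CPM in skin. Bone shares its naming style with spleen libraries of 12.8 to 20.8 CPM and skin with spleen libraries of 2.60 to 8.73 CPM.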

How the results depend on the processing

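Of the 20 calls of a gene higher than in spleen, 19 held in every alternative run other than the replicate block, and Ebi3 in heart was lost in some. The block, with the replicate number in place of naming style, leaves out bone b and c, so the lone bone library is assumed to vary like the other groups. There Il10 in bone was 3.63 (edgeR adjusted p = 0.051), Lgals1 in bone 0.65 (0.22) and Fgl2 in heart against bone 0.64 (0.5), on the log2 scale. That block also moved folds against spleen by over 1.5 times for Il10 (12.4 in bone, 24.6 in muscle, 22.9 in heart), Lgals1 (1.57 in bone, 3.23 in muscle) and Lgals3 (6.32 and 8.94). No tissue library carries the numbers of spleen replicates 4 to 6. Under the block the spleen reference is therefore replicates 1 to 3, all of the Endo style, for every tissue. Mean Il10 was 5.21 CPM in these and 16.1 CPM in spleen replicates 4 to 6. Genes called under the block numbered 1420 (bone against spleen), 31 (bone against muscle), 835 (bone against skin), 1132 (muscle against skin), 7 (heart against bone) and 826 (heart against skin). Of the 7 genes it called 3 in bone against spleen, 2 in muscle against skin, 0 in heart against bone and 4 in heart against skin. Whether same-numbered libraries belong together is not known. By replicate number, 18 same-numbered pairs correlated at -0.16 to 0.197, 2 of them over 0.1 (skin with spleen, replicates 1 and 3). Of 36 cases 7 correlated best with their own number. These numbers come from the sample titles and differ from the column numbers in muscle and in part of heart and spleen. Bone and spleen replicates 4 to 6 were left out, so these correlations cannot decide on pairing.

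Lgals9, never called, turned positive (log2) in bone without spleen replicate 6 (0.0055), in muscle without spleen replicate 6 (0.0397) or muscle replicate 1 (0.00199), and in skin without spleen replicates 1 and 2 (0.264), spleen replicate 1 (0.0716) or skin replicate 3 (0.0295). Leaving out 1 library at a time, it ran from -0.231 to 0.0055 in bone, from -0.22 to 0.0397 in muscle and from -0.239 to 0.0716 in skin. Without spleen replicates 1 and 2, 2548 genes passed in skin against spleen, against 4342.

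Counts between tissues moved most. For bone against muscle (759 genes, 0 of the 7), 432 genes passed with no style term, 493 in the fit to all libraries, 1270 by DESeq2 (3 of the 7), 1191 without a count filter (3) and 256 to 680 (0 to 1) leaving out 1 library. For bone against skin (1267, 1 of the 7), 2814 passed with no style term (2) and 843 by limma-voom (0), while the 7 gave 2 with RLE scaling, 0 with upper-quartile scaling, 2 by DESeq2, 2 without a filter and 0 to 2 leaving out 1 library (842 to 1167 genes). For muscle against skin (205, 1), 749 passed with no style term, 115 in the fit to all libraries (0), 427 by DESeq2, 75 by limma-voom (0), 618 without a filter and 101 to 274 (0 to 1) leaving out 1 library. For heart against bone (1064, 1), 1630 passed by DESeq2 (2), 429 to 1115 (0 to 2) leaving out 1 library, and 3 of the 7 without a filter. For heart against muscle (72, 0), 211 passed by DESeq2 (1), 380 without a filter (1) and 27 to 104 leaving out 1 library. For heart against skin (379, 1), 742 passed with no style term (4), 672 by DESeq2 (4), 909 without a filter (4) and 205 to 522 (1 to 2) leaving out 1 library, and limma-voom called 3 of the 7. The causes were not tested. Spleen libraries held 15 to 322 counts of Il10 and 23 to 70 of Lgals3.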
